A study of Mus musculus with 21 samples.

Results

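Il10 and 6 genes for transcription factors tied to its expression in T cells (Maf, Nfil3, Prdm1, Bhlhe40, Foxp3 and Ikzf2) were followed across a time course of T cell activation in mice. The 7 genes were chosen by name, with earlier results of these data known. They are 7 of the 47643 genes of the count table, and all passed the filter on low counts. RNA of splenic CD4+ T cells from Tg4 Tiger Nr4a3-Tocky mice was measured by 3′ mRNA sequencing in 21 libraries, 3 replicate mice in each of 7 groups. Every mouse, the controls included, carried the same 3 modifications: the Tg4 transgenic T cell receptor, which recognises a peptide of myelin basic protein (MBP), the Tiger allele, which marks Il10 expression with GFP, and the Nr4a3-Tocky transgene, which makes a Timer protein that is blue when new and red when mature. In 6 groups, mice received the [4Y] MBP peptide under the skin at a dose of 0.8 µg or of 80 µg, and splenic cells were collected 4 h, 12 h or 24 h later, whereas the control mice were left untreated. The study's sorting gate was Timer Blue+Red- for the 4 h groups, Blue+Red+ for those of 12 h, and Blue-Red+ for the 24 h groups, and the gate of the controls is not given in the sources used here. A difference between times, or from the control, therefore cannot be told apart from the change of gate. As nearly all T cells of such mice share 1 receptor, the groups model how 1 clonal specificity responds to dose. The ages of the mice are not given in the sources used here, both sexes were used, and the effect of the Tiger allele on reads from the 3′ end of Il10 was not tested.

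Il10 encodes interleukin-10, a cytokine that dampens antigen presentation and inflammatory cytokine production. In CD4+ T cells it is made by Foxp3+ regulatory T cells, by type 1 regulatory (Tr1) cells and by strongly or chronically stimulated effector cells. Maf (c-Maf), Nfil3 (E4BP4) and Prdm1 (Blimp-1) are known as activators of Il10 in T cells, whereas Bhlhe40 is known as a repressor of it. Foxp3 defines regulatory T cells, and Ikzf2 (Helios) is expressed by many of them and by some activated T cells.

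Library totals ranged from 2352800 to 6244279 counts. No pair of replicates was alike enough to be 1 library sequenced again. Replicate 3 of the 0.8 µg 12 h group stood furthest from its replicates. Its chi-square per degree of freedom over genes was 14.79 and 14.39 against replicates 1 and 2, which had 3.35 between them. That library was the lowest of its group for Il10, Maf, Nfil3, Prdm1, Bhlhe40 and Foxp3, but not for Ikzf2. The labelled cell type was checked on 9 CD4+ T cell genes (Cd4, Cd3d, Cd3e, Cd3g, Cd247, Thy1, Cd5, Cd28 and Lck), all detected in every group. Their summed level differed between groups, from 849 to 940 CPM (counts scaled to the library total) at 80 µg 4 h and 1366 to 1476 CPM at 0.8 µg 4 h to 2944 to 3150 CPM in the controls. At 4 h, 4 of the 9 were lower and 1 higher at 80 µg than at 0.8 µg by the test used for all genes. Of all genes, 2.74% were lower and 3.12% higher in this comparison. At 4 h and 12 h, 6 or 7 of the 9 were lower than the control at either dose, beside 20.1% to 25.1% of all genes. Genes of other cells that can make Il10 summed to less than the CD4+ T cell genes in every group. Il10 itself held only 184 reads over all libraries, and the part of such cells in its values was not tested. The 8 B cell genes summed to between 43.4 and 109 CPM in the control libraries and between 2.9 and 54 CPM in the immunised ones, the 11 myeloid genes to between 18.7 and 66.6 CPM in all libraries, and the 6 dendritic cell genes to at most 3.25 CPM. Most B cell and myeloid genes were detected. Cd79a was the only 1 of the 8 B cell genes at 0 in the 0.8 µg 4 h, 0.8 µg 24 h and 80 µg 24 h groups. Of the 11 myeloid genes, 1 or 2 were at 0 in each immunised group, Cd14 among them. Of the 6 dendritic cell genes, 1 to 5 were at 0 in each group, and Clec9a was at 0 in all 7 groups.

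On GRCm38, Il10 lies on chromosome 1 at 131019845 to 131024974 on the plus strand, and Ikzf2 on the same chromosome at 69531214 to 69687245 on the minus strand. Maf lies on chromosome 8 at 115682942 to 115707794 (minus), Nfil3 on chromosome 13 at 52967209 to 52981073 (minus), Prdm1 on chromosome 10 at 44437177 to 44528501 (minus), Bhlhe40 on chromosome 6 at 108660629 to 108666925 (plus), and Foxp3 on chromosome X at 7573644 to 7595245 (plus). All 7 are annotated as protein coding. The strand setting of the authors' counting is not given in the sources used here. No exon of Il10, Nfil3 or Prdm1 overlaps another annotated gene. Foxp3 shares exonic sequence with Ccdc22 (opposite strand, 995 counts over all libraries), Ppp1r3f (opposite strand, 28 counts) and Flicr (same strand, 67 counts), against 962 counts for Foxp3 itself, so its counts are the most open to sharing. The genes that overlap exons of Maf, Bhlhe40 and Ikzf2 held at most 4 counts each.

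RefSeq (GRCm38.p6) start windows, 250 bases before to 50 bases after a start, were at hand for Prdm1, Nfil3 and Foxp3 among the 7 genes. Prdm1 and Nfil3 are shown because their RNA had its highest mean in the same group as that of Il10, and Foxp3 because it did not. Capitals mark matches to the letters searched.
Prdm1, chr10:44458699-44458998, minus strand: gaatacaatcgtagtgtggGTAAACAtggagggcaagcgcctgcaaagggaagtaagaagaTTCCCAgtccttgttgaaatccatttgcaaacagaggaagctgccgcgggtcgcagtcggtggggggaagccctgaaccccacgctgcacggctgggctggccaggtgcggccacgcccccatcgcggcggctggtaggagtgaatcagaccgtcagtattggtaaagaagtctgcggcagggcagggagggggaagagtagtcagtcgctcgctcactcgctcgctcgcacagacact
Nfil3, chr13:52980990-52981289, minus strand: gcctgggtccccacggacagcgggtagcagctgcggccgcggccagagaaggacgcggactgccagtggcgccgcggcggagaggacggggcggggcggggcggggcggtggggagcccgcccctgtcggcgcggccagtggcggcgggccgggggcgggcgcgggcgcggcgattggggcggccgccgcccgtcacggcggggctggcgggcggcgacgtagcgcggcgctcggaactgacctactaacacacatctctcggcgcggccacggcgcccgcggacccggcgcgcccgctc
Foxp3, chrX:7579426-7579725, plus strand: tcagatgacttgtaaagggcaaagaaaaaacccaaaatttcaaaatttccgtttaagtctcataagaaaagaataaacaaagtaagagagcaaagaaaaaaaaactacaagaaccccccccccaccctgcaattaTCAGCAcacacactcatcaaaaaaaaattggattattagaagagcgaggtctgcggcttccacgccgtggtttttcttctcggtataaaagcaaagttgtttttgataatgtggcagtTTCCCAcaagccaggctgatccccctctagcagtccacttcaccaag

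Cores of up to 8 letters tied to the 6 factors were searched on both strands. They were TGCTGA and its longer form TGCTGAC (Maf sites, the longer containing the shorter), CACGTG (the E-box bound by Bhlhe40), TTACGTAA and TTATGTAA (D-boxes bound by Nfil3), GAAAGT (Prdm1), TGTTTAC (forkhead) and TGGGAA (Ikaros family). The Prdm1 window held the forkhead core as GTAAACA and the Ikaros core as TTCCCA. The Foxp3 window held the shorter Maf site as TCAGCA and the Ikaros core as TTCCCA. A second Foxp3 window and the Nfil3 window held no match. Over all 32851 windows of this length, the forkhead core was present in 3.65%, the shorter Maf site in 19.5% (the longer in 4.67%), the Ikaros core in 25.6%, the E-box in 7.15%, the D-boxes in 0.119% and 0.938%, and the Prdm1 core in 14.3%. A match describes letters, not binding. The Prdm1 and Foxp3 windows belong to starts inside the annotated gene spans.

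Cells given 80 µg of peptide held more Il10, Maf, Nfil3 and Prdm1 RNA than cells given 0.8 µg at 4 h and at 12 h, and for Maf and Prdm1 still at 24 h. Ikzf2 went the other way, with less RNA at the higher dose at 12 h and 24 h. A gene was called when its DESeq2 Wald test, fitted over all genes and all 21 libraries, had a Benjamini-Hochberg adjusted p under 0.05 and its shrunken log2 fold change exceeded 1 in size. With this rule, 6 of the 7 genes were called higher at 80 µg at 4 h, against 5.85% of all genes tested called in either direction (3.12% higher and 2.74% lower). At 12 h, 4 were called higher and 1 lower, where 2.79% of all genes were called (1.83% higher and 0.96% lower). At 24 h, 2 were called higher and 1 lower of the 5 that received an adjusted p, where 1.56% of all genes were called (0.89% higher and 0.673% lower). As the 7 genes were chosen with earlier results of these data known, these counts are descriptions and no test against the share of all genes. The calls of Nfil3, Bhlhe40 and Foxp3 at 4 h and of Prdm1 at 24 h were each lost in some fits without 1 library. The median log2 fold change over the 7 genes was 2.36 at 4 h, 2.20 at 12 h and 0.61 at 24 h, beside -0.02, 0.01 and 0.02 for all genes tested. In sorted cells measured in bulk, fewer cells that express a gene and less RNA per cell cannot be told apart.

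**Figure D1:**
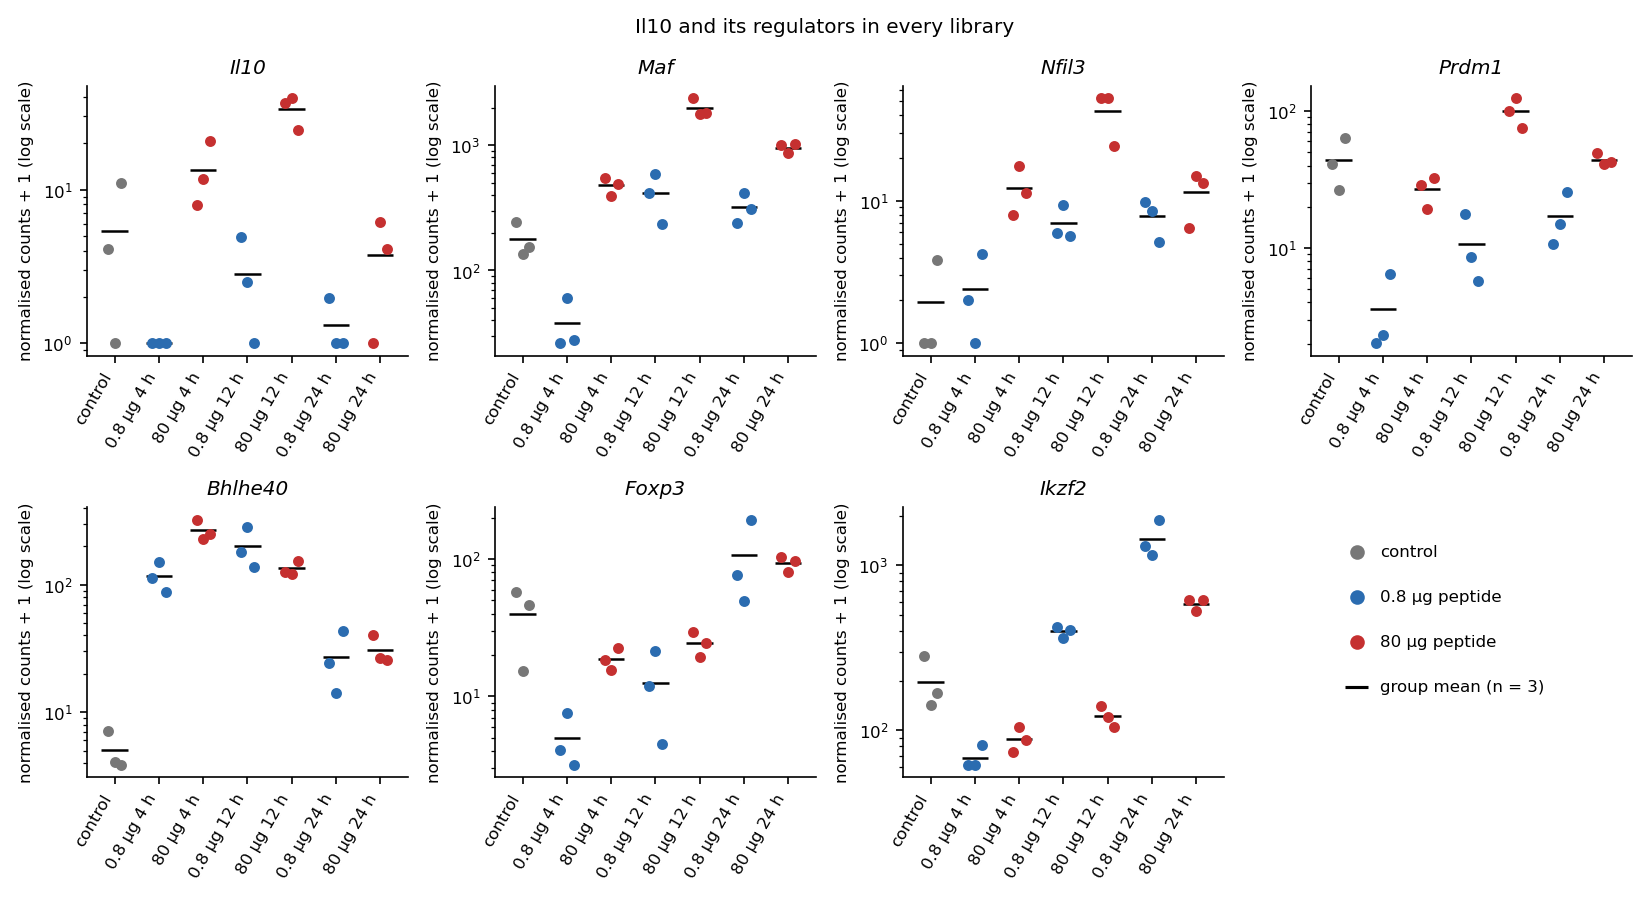
Normalised counts plus 1 (log scale) of each of the 7 genes in every library, by group. Points are libraries (grey control, blue 0.8 µg, red 80 µg) and bars are group means plus 1 (n = 3). Il10, Maf, Nfil3 and Prdm1 had their highest mean in the 80 µg 12 h group, Bhlhe40 in the 80 µg 4 h group, and Foxp3 and Ikzf2 in the 0.8 µg 24 h group.

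**Figure D2:**
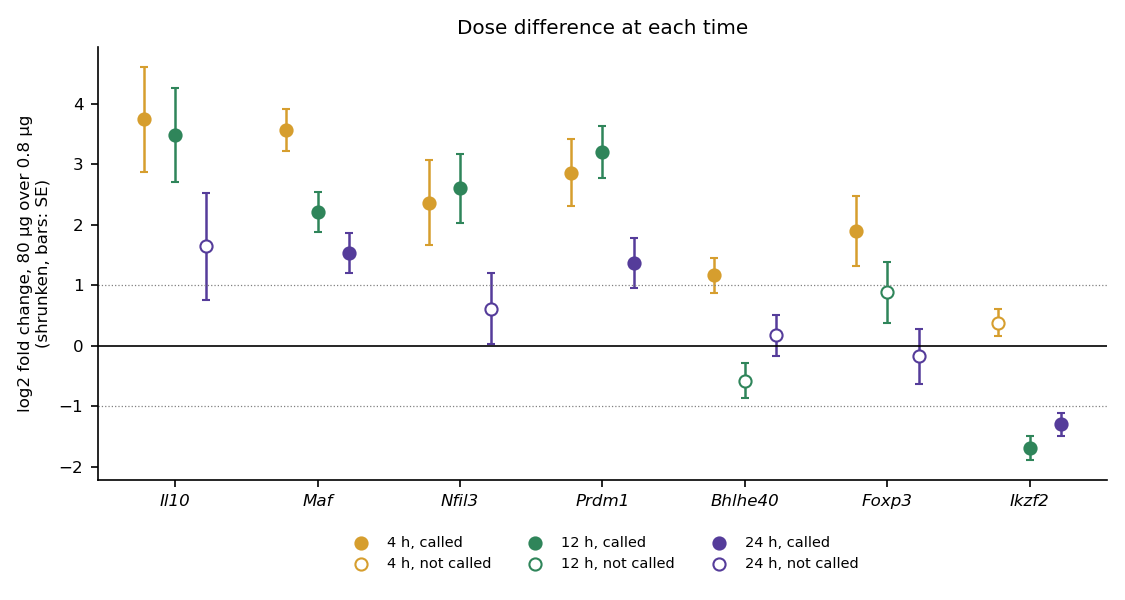
Shrunken log2 fold change of 80 µg over 0.8 µg at 4 h, 12 h and 24 h for each gene, with SE bars from DESeq2; filled points were called, and dotted lines mark a log2 fold change of 1 in either direction. Il10, Maf, Nfil3 and Prdm1 lie above 0 at each time, and Ikzf2 passes from 0.38 at 4 h to -1.69 at 12 h.

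Il10 itself was a low-count gene, with 184 reads in all 21 libraries. In normalised counts (counts divided by the DESeq2 size factor), the 0.8 µg 4 h libraries were at 0, 0 and 0, whereas the 80 µg 4 h libraries held 6.94, 10.7 and 19.7. At 12 h the 0.8 µg libraries held 3.92, 1.5 and 0, and the 80 µg libraries held 35.6, 38.2 and 23.3. The doses did not overlap at either time. At 24 h the 0.8 µg libraries held 0.973, 0 and 0 and the 80 µg libraries 0, 5.15 and 3.08, which overlap. Control libraries held 3.09, 0 and 9.99.

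At 4 h the 80 µg mean of Il10 was at least 3.65-fold higher than that of the 0.8 µg group, when the latter is set at a floor of 3 counts per library. The fitted log2 fold change was 3.74 ± 0.87 (SE, adjusted p = 0.000742, n = 3 per group), and the call was kept whichever library was left out, although the log2 fold change was 1.5 with only these groups fitted (adjusted p = 0.000763). At 12 h the mean rose from 1.81 ± 1.98 (SD, n = 3) at 0.8 µg to 32.4 ± 7.93 at 80 µg, a log2 fold change of 3.48 ± 0.78 (SE, adjusted p = 0.00161). Without 80 µg 12 h replicate 1 or replicate 2, DESeq2 gave no adjusted p for this difference, and the log2 fold change was 3.13 and 3.07. With only the 2 groups fitted it was 1.46 (adjusted p = 1.71e-05). At 24 h the counts of the 80 µg and 0.8 µg groups summed to 12 and 1, a ratio of 9.46 after scaling (95% exact interval 1.4 to 404, counting error only), and DESeq2 gave no adjusted p (unadjusted p = 0.0409). At 12 h the B cell genes summed to between 2.9 and 23 CPM in the 80 µg group and between 11.5 and 54 CPM in the 0.8 µg group, and the myeloid genes to between 30.7 and 66.6 CPM and between 38.9 and 61.1 CPM. At 4 h these sums were 11.5 to 19.7 CPM and 15.2 to 41.6 CPM for B cell genes, and 18.7 to 37.5 CPM and 24.4 to 56.7 CPM for myeloid genes.

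From 4 h to 12 h at 80 µg, the Il10 libraries did not overlap but the log2 fold change of 1.23 was not called (adjusted p = 0.185). It was called when only those 2 groups were fitted (adjusted p = 0.0245). From 12 h to 24 h at 80 µg, Il10 fell 11.8-fold, from 32.4 ± 7.93 to 2.74 ± 2.59 (SD, n = 3 each, adjusted p = 0.000549). Relative to the control, Il10 was called higher only in the 80 µg 12 h group (7.42-fold, adjusted p = 0.00312), and also in the 80 µg 4 h group (log2 fold change 1.38, adjusted p = 0.135) once control replicate 3 was left out (2.41, adjusted p = 0.0224). The 80 µg 12 h call was kept throughout, but its log2 fold change of 2.61 was 3.66 without control replicate 3. It was called lower in the 0.8 µg 4 h group (adjusted p = 0.00837), although control replicate 2 was at 0 as well. That call was lost without control replicate 3 (log2 fold change -1.44, adjusted p = 0.134) and when only the 2 groups were fitted (adjusted p = 0.0784). The call in the 0.8 µg 24 h group (adjusted p = 0.0476, ratio of summed counts 0.0866, 95% exact interval 0.002 to 0.609) was lost under edgeR (adjusted p = 0.0642), under no count filter (0.0503), with a replicate block (0.0634) and with only the groups compared (0.162). It was also lost without control replicate 1 or 3, 0.8 µg 24 h replicate 2 or 3, 80 µg 4 h replicate 2 or 3, any 80 µg 12 h replicate, or 80 µg 24 h replicate 3, among which adjusted p ran from 0.051 to 0.35. The log2 fold change of this difference, -2.04 with all libraries, was -1.12 without control replicate 3 and also with only the groups compared.

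Maf, a bZIP factor that binds the Il10 promoter and is also needed for Il21 and Il4 expression, had 15001 reads in all. Its 0.8 µg 4 h libraries held 25.2, 59.3 and 27 normalised counts and its 80 µg 4 h libraries 543, 396 and 490. At 12 h the values were 413, 588 and 232 at 0.8 µg and 2372, 1770 and 1797 at 80 µg, and at 24 h 239, 418 and 308 against 998, 860 and 1017. Doses were separate at all 3 times, and controls held 243, 134 and 153.

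The dose difference in Maf was 12.8-fold at 4 h (log2 fold change 3.56 ± 0.35 SE, adjusted p = 2.06e-21), 4.82-fold at 12 h (2.20 ± 0.33, adjusted p = 4.24e-09) and 2.98-fold at 24 h (1.53 ± 0.33, adjusted p = 0.000276). These 3 calls were kept under all 7 alternatives and without any of the 21 libraries, with 1.45 at 12 h when only the groups compared were fitted. The change of the dose difference with time passed the likelihood ratio test (adjusted p = 0.00209). Against the control, Maf fell 4.75-fold in the 0.8 µg 4 h group (adjusted p = 5.66e-09) and rose 2.7-fold in the 80 µg 4 h group (adjusted p = 9.68e-05), so that the 2 doses lay on opposite sides of the control. It was 11.2-fold above the control in the 80 µg 12 h group and 5.43-fold above it in the 80 µg 24 h group (adjusted p = 4.49e-23 and 2.12e-11). In the 0.8 µg 12 h group it was 2.33-fold above the control (adjusted p = 0.00114), a call lost without 0.8 µg 12 h replicate 2 (log2 fold change 0.85, adjusted p = 0.0295). The 0.8 µg 24 h difference of 0.84 was not called, and became so without control replicate 1 (1.12, adjusted p = 0.00725) or 0.8 µg 24 h replicate 1 (1.01, adjusted p = 0.0239). Within the doses, Maf rose from 4 h to 12 h by 11.1-fold at 0.8 µg (adjusted p = 1.6e-19) and by 4.16-fold at 80 µg (adjusted p = 1.36e-08). It fell 2.07-fold from 12 h to 24 h at 80 µg (adjusted p = 0.00575), a call lost without 80 µg 12 h replicate 1 (-0.84, adjusted p = 0.0474) or 80 µg 24 h replicate 2 (-0.96, adjusted p = 0.034).

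Nfil3, a bZIP repressor and activator that also acts in the circadian clock, was a low-count gene with 276 reads in all. The 0.8 µg libraries held 1.01, 0 and 3.24 normalised counts at 4 h, 4.9, 8.27 and 4.7 at 12 h, and 8.76, 7.46 and 4.13 at 24 h. The 80 µg libraries held 6.94, 16.5 and 10.3 at 4 h, 51.2, 51.4 and 23.3 at 12 h, and 5.48, 14 and 12.3 at 24 h. Control libraries held 0, 0 and 2.86. The doses were separate at 4 h and 12 h and overlapped at 24 h.

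At 12 h Nfil3 was 7.04-fold higher at 80 µg (log2 fold change 2.60 ± 0.57 SE, adjusted p = 0.00042), a call kept under every alternative (1.33 with only the groups compared) and library left out. At 4 h it was 7.94-fold higher (2.36 ± 0.70, adjusted p = 0.0167). That call was lost without 0.8 µg 4 h replicate 1, 2 or 3 (adjusted p = 0.0961, 0.0901 and 0.0562), without 80 µg 4 h replicate 2 (adjusted p = 0.09), and with only the groups compared (adjusted p = 0.0581). At 24 h it was 0.61 ± 0.59 on the log2 scale, with no adjusted p. Nfil3 was called above the control in 5 of the 6 immunised groups, by ratios of summed counts from 8.3 (0.8 µg 12 h, 95% exact interval 2.02 to 73.2) to 57.2 (80 µg 12 h, 15.5 to 476), and was not called in the 0.8 µg 4 h group (1.99, 0.285 to 21.9). The calls at 80 µg held throughout, whereas those at 0.8 µg were lost without control replicate 1 or 2 (adjusted p = 0.1 and 0.102 at 12 h, 0.101 and 0.103 at 24 h), without 0.8 µg 12 h replicate 2 (adjusted p = 0.0721) or 0.8 µg 24 h replicate 1 (adjusted p = 0.0594), and with only the groups compared (adjusted p = 0.109 at 12 h, 0.101 at 24 h). At 80 µg, Nfil3 rose 3.73-fold from 4 h to 12 h (adjusted p = 0.00415) and fell 3.96-fold from 12 h to 24 h (adjusted p = 0.00228).

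Prdm1, the zinc finger factor of plasma cell differentiation that also restrains Il2 in T cells, held 1.01, 1.32 and 5.4 normalised counts in the 0.8 µg 4 h libraries and 27.8, 18.4 and 31.7 in the 80 µg 4 h libraries. At 12 h it held 16.7, 7.52 and 4.7 at 0.8 µg and 99.6, 123 and 74.8 at 80 µg. At 24 h it held 9.73, 14 and 24.8 at 0.8 µg and 48.2, 39.7 and 41.3 at 80 µg. The doses were separate at each time. Control libraries held 40.2, 25.4 and 62.8, above all 0.8 µg libraries. The 6 plasma cell genes summed to at most 3.8 CPM in the immunised libraries and to between 1.28 and 7.69 CPM in the controls. In each immunised group 2 or 3 of the 6 were at 0, Iglv1 among them.

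For Prdm1 the dose difference was 10.1-fold at 4 h (log2 fold change 2.86 ± 0.55 SE, adjusted p = 2.34e-05) and 10.3-fold at 12 h (3.20 ± 0.43, adjusted p = 3.42e-11). Both calls were kept throughout, at log2 fold changes of 1.81 and 2.09 with only the groups compared. At 24 h it was 2.66-fold (1.36 ± 0.41, adjusted p = 0.0241). The 24 h call was lost without 0.8 µg 24 h replicate 1 or 2 (adjusted p = 0.172 and 0.126), without 80 µg 24 h replicate 1, 2 or 3 (adjusted p = 0.0941, 0.0591 and 0.0738), and with only the groups compared (log2 fold change 0.81). The interaction of dose with time had an adjusted p of 0.029, which rose above 0.05 (to between 0.0504 and 0.213) without 0.8 µg 4 h replicate 1, 0.8 µg 12 h replicate 2 or 3, 0.8 µg 24 h replicate 3, 80 µg 4 h replicate 3, 80 µg 12 h replicate 1 or 2, or any 80 µg 24 h replicate. With a replicate block it was 0.076. Against the control, Prdm1 was 16.6-fold lower in the 0.8 µg 4 h group (adjusted p = 9.38e-09) and 4.44-fold lower in the 0.8 µg 12 h group (adjusted p = 1.93e-05). In the 0.8 µg 24 h group it was 2.65-fold lower (adjusted p = 0.00592), a call lost without control replicate 3 (-0.97, adjusted p = 0.085) or 0.8 µg 24 h replicate 1 (-1.08, adjusted p = 0.0569). In the 80 µg groups it was called only at 12 h, 2.31-fold above the control (adjusted p = 0.00456), which was lost without control replicate 2 (0.95, adjusted p = 0.0486) or 80 µg 12 h replicate 2 (0.98, adjusted p = 0.0464). At 80 µg, Prdm1 rose 3.81-fold from 4 h to 12 h (adjusted p = 1.16e-05) and fell 2.3-fold to 24 h (adjusted p = 0.00549, lost without 80 µg 12 h replicate 2, -0.95, adjusted p = 0.0591). At 0.8 µg, a rise from 4 h to 12 h (1.52, adjusted p = 0.022) was lost without 0.8 µg 4 h replicate 1 or 2 (adjusted p = 0.121 and 0.0807), without 0.8 µg 12 h replicate 1 (adjusted p = 0.201), and with only the groups compared (adjusted p = 0.159).

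Bhlhe40, a basic helix-loop-helix repressor that binds E-boxes, had the largest fitted log2 fold change from the control of the 7 genes (5.59, in the 80 µg 4 h group). Control libraries held 6.18, 3.04 and 2.86 normalised counts. The 0.8 µg libraries held 113, 151 and 87.4 at 4 h, 181, 281 and 137 at 12 h, and 23.4, 13.1 and 42.3 at 24 h. The 80 µg libraries held 323, 227 and 250 at 4 h, 126, 120 and 154 at 12 h, and 39.4, 25.8 and 24.7 at 24 h. Every immunised library was above every control, and the doses were separate at 4 h only.

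Bhlhe40 was called above the control in all 6 immunised groups, from 6.52-fold in the 0.8 µg 24 h group (adjusted p = 7.46e-06) to 66.1-fold in the 80 µg 4 h group (adjusted p = 8.68e-30), and these calls were kept throughout. At 4 h it was 2.27-fold higher at 80 µg (log2 fold change 1.16 ± 0.29 SE, adjusted p = 0.000993), which slipped under the size threshold without 80 µg 4 h replicate 1 (0.99, adjusted p = 0.0287). At 12 h the difference was -0.58 ± 0.29 (adjusted p = 0.268) and at 24 h 0.17 ± 0.34 (adjusted p = 0.865). The test of whether the dose difference changed with time gave an adjusted p of 0.00168. At 80 µg its mean was 266 at 4 h and 133 at 12 h (log2 fold change -0.98, adjusted p = 0.00211), just short of the size threshold, which it passed with unshrunken fold changes and without 80 µg 4 h replicate 2 (-1.06, adjusted p = 0.00361) or 3 (adjusted p = 0.00724) or 80 µg 12 h replicate 3 (-1.11, adjusted p = 0.00325). At 0.8 µg its mean at 12 h was 1.7 times the mean of 117 at 4 h (0.77, adjusted p = 0.0245, not called). From 12 h to 24 h it fell 7.62-fold at 0.8 µg and 4.44-fold at 80 µg (adjusted p = 3.48e-18 and 6.38e-11).

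Foxp3, the lineage factor of regulatory T cells, held 56.7, 14.2 and 45.7 normalised counts in the controls. The 0.8 µg libraries held 3.03, 6.59 and 2.16 at 4 h, 10.8, 20.3 and 3.52 at 12 h, and 75.9, 48.5 and 193 at 24 h. The 80 µg libraries held 17.4, 14.5 and 21.4 at 4 h, 28.3, 18.3 and 23.3 at 12 h, and 103, 79.5 and 96.1 at 24 h. The doses were separate at 4 h and overlapped at 12 h and 24 h, and the 0.8 µg 24 h replicate 3 library was the highest of all 21.

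At 4 h Foxp3 was 4.53-fold higher at 80 µg (log2 fold change 1.89 ± 0.58 SE, adjusted p = 0.0118), a call lost without 0.8 µg 4 h replicate 1 or 3 (adjusted p = 0.0759 and 0.0933) or 80 µg 4 h replicate 3 (adjusted p = 0.0575), and at 1.21 with only the groups compared (adjusted p = 0.0301). At 12 h the difference was 0.88 ± 0.50 (adjusted p = 0.384) and at 24 h -0.18 ± 0.45 (adjusted p = 0.902). With 1 library left out, the 24 h difference ran from -0.46 to 0.58 and was never called. Foxp3 was 9.9-fold below the control in the 0.8 µg 4 h group (adjusted p = 1.73e-06), a call kept throughout. In the 80 µg 4 h group it was 2.19-fold below (-1.05, adjusted p = 0.0563, not called), and it was called under a stricter count filter (adjusted p = 0.0341) and without control replicate 2 (-1.42, adjusted p = 0.0087) or any of 0.8 µg 12 h replicate 2 or 3 and 0.8 µg 24 h replicate 2 or 3 (adjusted p = 0.0348 to 0.0477). In the 0.8 µg 12 h group it was 3.37-fold below (adjusted p = 0.00417), lost without control replicate 1 (-1.20, adjusted p = 0.0608). From 12 h to 24 h it rose 9.17-fold at 0.8 µg (adjusted p = 1.74e-08) and 3.98-fold at 80 µg (adjusted p = 0.000229), both called throughout. Without 0.8 µg 24 h replicate 3, the log2 fold change at 0.8 µg was 2.21 rather than 2.95. The 24 h groups were 2.72-fold (0.8 µg, adjusted p = 0.0116) and 2.39-fold (80 µg, adjusted p = 0.0293) above the control. The first was lost without 0.8 µg 24 h replicate 3 (0.63, adjusted p = 0.294), without control replicate 2 (1.02, adjusted p = 0.0964) and with only the groups compared (adjusted p = 0.144). The second was lost without control replicate 2 (0.84, adjusted p = 0.178) or 80 µg 24 h replicate 1 or 3 (adjusted p = 0.0903 and 0.08). A rise from 4 h to 12 h at 0.8 µg (1.36, adjusted p = 0.0434) was lost without 0.8 µg 4 h replicate 1 or 3 or 0.8 µg 12 h replicate 1 or 2 (adjusted p = 0.0606 to 0.363) and with only those groups fitted (adjusted p = 0.18).

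A list of 13 other regulatory T cell genes, also chosen with earlier results known, was read beside Foxp3. All 13 passed the count filter. Of them, 12, 12 and 9 received an adjusted p between doses at 4 h, 12 h and 24 h. At 4 h, 6 were called higher at 80 µg and 1 lower (3.12% and 2.74% of all genes tested), at 12 h 3 and 1 (1.83% and 0.96%), and at 24 h 1 was called higher (0.89%), with median log2 fold changes of 1.64, 0.71 and -0.25. Ctla4, an inhibitory receptor, rose from 3.46 ± 2.15 to 344 ± 85.3 (SD, n = 3) with dose at 4 h, Ikzf4 (Eos) from 8.35 ± 7.25 to 95.9 ± 10.6 and Nrp1 from 7.18 ± 3.42 to 61.9 ± 18.9, whereas Lrrc32 (GARP) fell from 71.7 ± 13.3 to 17.2 ± 4.89. Control means were 19 ± 12.2 for Ctla4, 95.1 ± 8.69 for Ikzf4, 25.7 ± 14.4 for Nrp1 and 5.6 ± 4.46 for Lrrc32. In the 0.8 µg 24 h group, replicate 3 was the highest library for 11 of the 13 genes, all but Ctla4 and Ebi3, as it was for Foxp3. The gap was wide for Nrp1 (29.8, 18.2 and 55 CPM), Gpr83 (7.13, 10.7 and 32.5), Ikzf4 (38, 36.5 and 78.3) and Izumo1r (100, 96.5 and 150) and narrow for Capg (21.9, 20.4 and 23). Control replicate 1 was the highest control library for 9 of the 13 genes, as it was for Foxp3 and Ikzf2. The list summed to 153 to 212 CPM in the controls. At 0.8 µg it summed to 458 to 658 CPM at 4 h, 378 to 632 at 12 h and 372 to 596 at 24 h, and at 80 µg to 1373 to 1520 CPM, 818 to 911 and 355 to 399. At 80 µg 4 h most of the sum was Il2ra (1106 to 1164 CPM), which activated T cells also express. The count of genes moved otherwise than this sum. From 12 h to 24 h, the step at which Foxp3 and Ikzf2 rose, 9 of the 13 were called higher and 1 lower (Il2ra) at 0.8 µg. At 80 µg, 5 were called higher and 1 lower (Il2ra). The list medians were 1.63 and 1.2, beside 0.12 for all genes. Of all genes tested, 17.1% were called higher and 9.48% lower at 0.8 µg, and 16.7% and 10.5% at 80 µg. Nrp1, Capg and Izumo1r were among the higher at both doses. Against the control, 8 at 0.8 µg and 7 at 80 µg were called higher at 24 h (medians 2.15 and 1.71). Of all genes tested, 11.5% and 12.3% were called higher there. At 0.8 µg 4 h, where Foxp3 and Ikzf2 were lower than the control, 7 of the list were called lower and 3 higher (median -1.69). The shares of all genes were 23.4% lower and 17.3% higher. Itgae was at 0 in both 4 h groups, and Ebi3 and Il1rl1 in the 0.8 µg 4 h group. The part of regulatory T cells in the Foxp3 and Ikzf2 values was not tested.

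Ikzf2, a zinc finger factor of the Ikaros family, held 279, 141 and 168 normalised counts in the controls. The 0.8 µg libraries held 60.6, 60.6 and 79.9 at 4 h, 423, 363 and 402 at 12 h, and 1312, 1159 and 1890 at 24 h. The 80 µg libraries held 72.9, 103 and 86.6 at 4 h, 140, 120 and 104 at 12 h, and 614, 524 and 614 at 24 h. The doses overlapped at 4 h and were separate at 12 h and 24 h, with the lower dose on top.

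Ikzf2 at 80 µg was 3.27-fold lower than at 0.8 µg at 12 h, with a log2 fold change of -1.69 ± 0.20 (SE, adjusted p = 4.24e-14), and 2.49-fold lower at 24 h (-1.30 ± 0.19, adjusted p = 3.03e-09), both kept under every alternative and library left out. At 4 h the difference was 0.38 ± 0.23 (adjusted p = 0.357). The CD8 T cell genes Cd8a and Cd8b1 were also lower at the higher dose, both called at 12 h (summed level 13.1 to 22.7 CPM against 43.6 to 51.3 CPM) and 1 of them at 24 h (20.1 to 28.8 CPM against 34.3 to 40.9 CPM). Of the 5 NK cell genes, only Eomes received an adjusted p, and it was called lower at each time. Ncr1 was at 0 in 4 of the 7 groups, and 0 to 3 of the 5 genes were at 0 in each group. The part of such cells in the Ikzf2 values was not tested. The interaction with time had an adjusted p of 3e-12, the smallest of the 7 genes. At 4 h both doses were called below the control, 2.93-fold at 0.8 µg and 2.25-fold at 80 µg (adjusted p = 4.42e-11 and 3.36e-07), the latter only with control replicate 1 in the fit (-0.81 without it, adjusted p = 0.000467). At 24 h both were above it, 7.41-fold and 2.98-fold (adjusted p = 1.41e-44 and 1.5e-13). At 12 h they lay on either side of the control, at a log2 fold change of 1.00 (adjusted p = 2.99e-06) and -0.69 (adjusted p = 0.00244). The first sat at the size threshold, so it was called under edgeR (1.10), under TMM library sizes (1.01) and without control replicate 1 (1.35). It was also called with unshrunken fold changes (1.01), with only the groups compared (1.07), and, at 1.00 to 1.05, without 0.8 µg 4 h replicate 2 or 3, 0.8 µg 12 h replicate 2, any 80 µg 4 h replicate or 80 µg 12 h replicate 3. From 4 h to 12 h Ikzf2 rose 5.91-fold at 0.8 µg (adjusted p = 6.88e-29) and was not called at 80 µg (0.46, adjusted p = 0.0733). From 12 h to 24 h it rose 3.67-fold and 4.82-fold (adjusted p = 1.13e-20 and 2.92e-27).

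**Figure D3:**
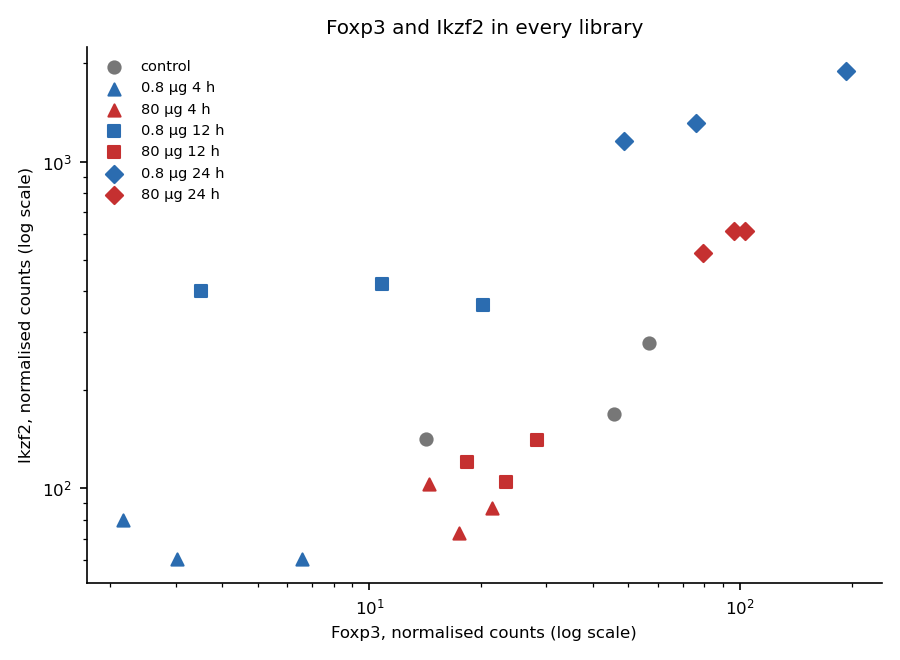
Ikzf2 against Foxp3 in each of the 21 libraries, in normalised counts on log axes; shape gives time and colour gives dose, with controls in grey. The 0.8 µg 12 h libraries (squares) hold 363 to 423 counts of Ikzf2 at a Foxp3 level of 3.52 to 20.3. The 24 h libraries lie above all others for Ikzf2 (524 to 1890). Their Foxp3 range (48.5 to 193) overlaps that of the controls (14.2 to 56.7).

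The comparisons with the control use the same 3 control libraries each time. In the 0.8 µg groups, 1 was called higher and 5 lower at 4 h, where 40.7% of all genes tested were called (17.3% higher, 23.4% lower). At 12 h these were 3 and 2 (background 37.7%, as 17.2% and 20.5%), and at 24 h 4 and 2 (17.3%, as 11.5% and 5.84%). In the 80 µg groups, 3 were called higher and 1 lower at 4 h (43.5%, as 18.4% and 25.1%), 5 higher at 12 h (37.9%, as 17.8% and 20.1%) and 5 higher at 24 h (20.2%, as 12.3% and 7.91%). As the background is large here, the counts say little about the 7 genes beyond each gene's own values.

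**Figure D4:**
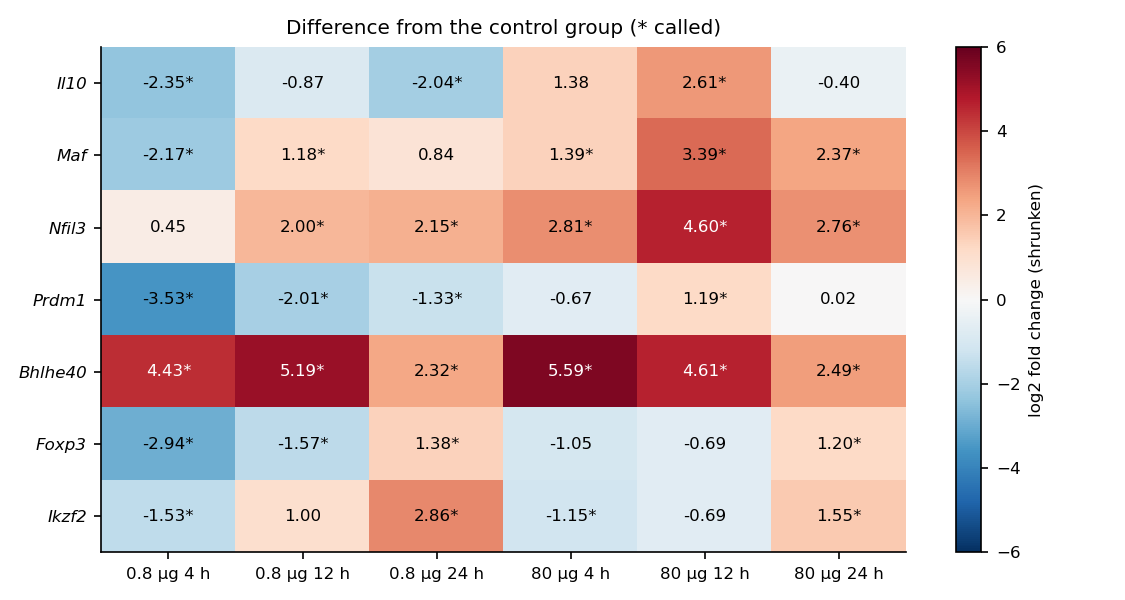
Shrunken log2 fold change from the control group for each gene (rows) in each immunised group (columns), with the value in each cell and an asterisk where it was called. Red is above the control and blue below it, and Bhlhe40 is red in all 6 columns, from 2.32 to 5.59.

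Between successive times at 0.8 µg, 4 genes were called higher at 12 h than at 4 h (20.5% of all genes tested called, 12.6% higher and 7.98% lower), namely Maf, Prdm1, Foxp3 and Ikzf2, and from 12 h to 24 h Foxp3 and Ikzf2 rose and Bhlhe40 fell (26.6%, as 17.1% and 9.48%). At 80 µg, Maf, Nfil3 and Prdm1 rose from 4 h to 12 h (24.8%, as 15.7% and 9.1%). All 7 were called from 12 h to 24 h at 80 µg (27.2%, as 16.7% and 10.5%), with Il10, Maf, Nfil3, Prdm1 and Bhlhe40 lower and Foxp3 and Ikzf2 higher. The dose by time interaction passed for 4 of the 7 (Maf, Prdm1, Bhlhe40 and Ikzf2), where 10.4% of all genes passed, and Foxp3 and Nfil3 had adjusted p values of 0.058 and 0.148. For Il10 the interaction had no adjusted p (unadjusted p = 0.32), so its smaller dose difference at 24 h was not shown to differ from those at 4 h and 12 h. Foxp3 passed without 0.8 µg 4 h replicate 2, 0.8 µg 12 h replicate 2 or 3, or 0.8 µg 24 h replicate 2 (adjusted p = 0.0362, 0.0254, 0.0408 and 0.0108), and under the filter of at least 10 counts in at least 3 samples (adjusted p = 0.0374).

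In the order of mean levels, Il10 in the 80 µg 12 h group (32.4) did not overlap the next group, 80 µg 4 h (12.4), and each neighbouring pair below overlapped. For Maf the 80 µg 12 h (1980), 80 µg 24 h (959) and 80 µg 4 h (476) groups came first, the first 2 apart from their next neighbours, and 0.8 µg 4 h (37.2) came last, apart from the control (177) above it. Nfil3 and Prdm1 had only the 80 µg 12 h group (41.9 and 99) apart from the next, other than a gap in Nfil3 between 0.8 µg 12 h (5.96) and 0.8 µg 4 h (1.42). For Bhlhe40, each neighbouring pair within its first 4 groups (266 to 117) overlapped, although 80 µg 4 h was apart from 80 µg 12 h and 0.8 µg 4 h. Its 24 h groups (30 and 26.2) overlapped and were apart from 0.8 µg 4 h above and the control below. Ikzf2 had the most clearly ordered groups, as all neighbours from 0.8 µg 24 h (1454) down to 80 µg 4 h (87.4) were apart and only the 2 groups at 4 h overlapped. Foxp3 overlapped at each step except between 80 µg 24 h (92.9) and control (38.9).

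Genes whose group means over the 7 groups were most like a member's were taken from the deposited rlog values (a log2 scale that damps low counts), among 6499 genes with enough counts and range. For Il10 they were Mfhas1 (Pearson r = 0.980), Cpd (0.950) and the cytokine gene Il21 (0.917). Il21 went from a mean of 0.776 normalised counts in the 0.8 µg 4 h group to 153 in the 80 µg 4 h group and 204 in the 80 µg 12 h group. For Maf they were Raph1 (0.932), Anxa7 (0.930) and Mrpl33 (0.926), for Nfil3 Gm14005 (0.961), Myd88 (0.954) and Tgm2 (0.936), and for Prdm1 Chm (0.970), Adprm (0.963) and Gm37215 (0.924). Bhlhe40 was most like Mrps30 (0.995), Smu1 (0.995) and Coa5 (0.994). Foxp3 was most like Stat2 (0.984), Glrx (0.983) and Zbp1 (0.980), of which Stat2 and Zbp1 are known interferon response genes, and Ikzf2 was most like Abcb1a (0.960), Izumo1r (0.958) and Primpol (0.957). Between members, r was highest for Maf with Nfil3 (0.88) and Il10 with Nfil3 (0.82), and Il10 had an r of 0.37 with Bhlhe40, -0.06 with Foxp3 and -0.45 with Ikzf2. These values describe 7 points from 21 libraries in which all genes share depth and sorting gate.

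Of 23 other factors tied to Il10 in T cells, 10 were called higher in the 80 µg group and 2 lower at 4 h, 6 higher and 2 lower at 12 h, and 1 higher and 2 lower at 24 h, with medians of 0.70, 0.23 and -0.04. Here and for the lists that follow, the share of all genes called between doses was 5.85% at 4 h, 2.79% at 12 h and 1.56% at 24 h. These lists too were chosen with earlier results of these data known, so their counts are descriptions only. At 4 h, Rora rose with dose from 111 ± 60.9 to 1541 ± 129 normalised counts (SD, n = 3, adjusted p = 1.01e-10), Stat4 from 5.24 ± 4.46 to 49.2 ± 3.54 (adjusted p = 1.08e-11) and Tbx21 (T-bet) from 150 ± 14.3 to 745 ± 106 (adjusted p = 4.22e-17). The control mean was 196 ± 32.7 for Stat4, above both doses, and 8.24 ± 3.55 for Tbx21, below both. Gata3, the Th2 factor, fell with dose at 4 h from 413 ± 72.5 to 137 ± 11.9 (adjusted p = 1.36e-22) and at 12 h from 334 ± 51.1 to 65.5 ± 5.59 (adjusted p = 1.02e-40). Eomes fell with dose at 4 h, 12 h and 24 h (log2 fold change -1.46, -2.84 and -2.47). Tbx21 alone of the list was called higher at 24 h (1.95, adjusted p = 1.57e-07).

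Among 11 cytokine and receptor genes that feed into Il10 expression, 4 were called higher in the 80 µg group and 1 lower (Tgfbr2) at 4 h, 3 higher at 12 h and 2 higher at 24 h, with list medians of 0.17, 0.27 and 0.19. Il21 and Il12rb2 were higher at each time, Il21 by log2 fold changes of 6.49, 5.97 and 3.90 and Il12rb2 by 4.67, 1.33 and 2.79. Icos, a costimulatory receptor, rose from 259 ± 73.7 to 1263 ± 164 at 4 h and from 480 ± 124 to 1644 ± 264 at 12 h. Of 13 Tr1-associated genes, 8 received an adjusted p at 4 h, of which 4 were called higher and 1 lower, and the same counts held at 12 h, with Cd226 the gene called lower both times (-1.60 and -2.56). At 24 h 2 of 7 were called higher, Il21 and the granzyme gene Gzmb (3.59, adjusted p = 5.53e-11). The list medians were 1.96, 1.39 and 0.69. This list shares Il21 and Icos with the list of inputs and Ctla4 with the regulatory T cell list, so their calls are counted again. Itga2 was the 1 of the 13 genes at 0 in the 80 µg 12 h group.

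Downstream of the cytokine, 8 genes of Il10 receptor signalling were measured, with median log2 fold changes between doses of 0.87, 0.22 and 0.17 at 4 h, 12 h and 24 h. Socs3, a feedback inhibitor that STAT3 induces, was called higher with 80 µg at all 3 times, from 17.2 ± 6.46 to 344 ± 101 normalised counts at 4 h (SD, n = 3, adjusted p = 3.82e-16), from 41.8 ± 22.9 to 132 ± 68.3 at 12 h (adjusted p = 0.0115) and from 84.6 ± 43.2 to 224 ± 42.2 at 24 h (adjusted p = 0.0411). The control mean of Socs3 was 230 ± 12. The 0.8 µg groups were called below it at 4 h, 12 h and 24 h (log2 fold change -3.51, -2.32 and -1.37). Il10ra, the ligand-binding chain, was called higher with 80 µg at 4 h (log2 fold change 1.70, adjusted p = 0.0116) and 24 h (1.18, adjusted p = 0.0347). Its control mean was 27.3 ± 10.2, above the 80 µg 4 h mean of 16.5 ± 3.06 and below the 80 µg 24 h mean of 56.8 ± 3.03. The shared chain Il10rb and the kinase Tyk2 were called lower at 4 h (-1.22 and -1.01, adjusted p = 0.000396 and 0.000679). From 12 h to 24 h at 80 µg, 3 of the 8 rose and 1 fell, where 16.7% of all genes tested rose and 10.5% fell. Il10ra rose from 18.3 ± 3.33 to 56.8 ± 3.03, Il10rb from 37.7 ± 8.8 to 94.8 ± 11.8 and the kinase gene Jak1 from 1340 ± 103 to 3612 ± 270, while Bcl3 fell from 291 ± 40.5 to 114 ± 30.6.

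Genes related to the 6 factors by family, or to Il10 by position, were also read. Of 18 paralogs, 2 were called higher in the 80 µg group and 1 lower at 4 h, 1 lower (Tef) at 12 h and 1 lower (Foxp4) at 24 h. At 4 h these were Ikzf4, a relative of Ikzf2 (log2 fold change 3.26, adjusted p = 2.36e-15, where Ikzf2 had 0.38), Maff, a small Maf protein (1.23, adjusted p = 0.0154), and Foxp4 (-1.05, adjusted p = 8.81e-05). Of 11 neighbours of Il10 on chromosome 1, 6 passed the count filter, and with 80 µg only Ikbke, a kinase gene, was called, lower at 4 h (from 90.8 ± 8.54 to 14.5 ± 5.74, adjusted p = 8.74e-19). Of 14 circadian clock genes (Nfil3 and Bhlhe40 also act in the clock), 2 were called lower at 80 µg at 12 h, Per2 (-1.52) and Tef (-1.10), and 1 at 24 h, Nr1d2 (-1.62).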

How the data were processed

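Raw counts per gene were deposited by the authors for 21 libraries, made per the labels and the study's methods with trimming by Bbduk, alignment to GRCm38 by STAR 2.5.2a and HTSeq counting, and no use of molecular identifiers is stated. The deposited log2 values are the authors' rlog transformation from DESeq2, for 15249 genes, and were used here for likeness between genes only. Because reads come from 3′ ends, levels were compared within a gene.

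The counts were tested here with DESeq2 1.42.0 in R 4.3.3, after the study's methods: 15300 genes with at least 10 counts over all samples, 1 coefficient per group for all 21 samples, normal-prior shrinkage, and calls at an adjusted p under 0.05 (Benjamini-Hochberg, over all genes tested) with an absolute log2 fold change above 1. There were 13 comparisons: 3 of dose, 6 with the control and 4 of successive times. A likelihood ratio test over the 18 immunised samples compared dose, time and their interaction with dose and time. Both tests were checked on simulated data, of which no outcome is given here. Alternatives were edgeR 4.0.16 (quasi-likelihood), TMM library sizes, no count filter, at least 10 counts in at least 3 samples, unshrunken fold changes, only the groups compared, a replicate block and leaving out each library. Depth ranged from 2352800 to 6244279 counts per library. Intervals and the floor of 3 counts per library cover counting error only.

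The members and gene lists were chosen with earlier results of these data known. All 7 members were tested in every comparison, and some differences that were not called are given no value in the text. List genes named between doses were those with the largest changes, up to 3 each way, among the called ones whose overall mean reached 20 normalised counts. The genes most like a member are the 3 with the highest r over group means, given a range of at least 1 rlog unit and the same minimum level. The per-library values of Nrp1, Gpr83, Ikzf4, Izumo1r, Capg and Il2ra were picked once seen. Genes were placed with GENCODE on GRCm38, counted from 1.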

Additional observations from a re-analysis of the deposited data

Results flagged for a closer look

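The difference between doses changed with time for 4 of the 7 genes in the likelihood ratio test of the interaction (DESeq2, 18 immunised libraries). For Ikzf2 the adjusted p was 3e-12, with log2 fold changes of 80 µg over 0.8 µg of 0.38 at 4 h, -1.69 at 12 h and -1.30 at 24 h. For Bhlhe40 it was 0.00168, with 1.16, -0.58 and 0.17. For Maf it was 0.00209, with 3.56, 2.20 and 1.53, and for Prdm1 it was 0.029, with 2.86, 3.20 and 1.36. The Prdm1 result did not pass with a replicate block (adjusted p = 0.076) or without any of 10 single libraries (0.0504 to 0.213). The sorting gate changed with time, so a difference between times cannot be told apart from a difference between gates.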

How the results depend on the processing

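Of 91 pairs of a gene and a comparison, 62 were called, and 43 of these were called under all 7 alternatives and in every fit without 1 of the 21 libraries that gave an adjusted p. Of the 43, Il10 between doses at 12 h had no adjusted p in 2 such fits. No called difference changed sign, and 7 pairs that were not called did so. With only the groups compared, 3 members rather than 6 were called for 0.8 µg 24 h against control and 2 rather than 4 for 0.8 µg 12 h against 0.8 µg 4 h. Called dose differences whose fold became smaller by over 1.5 times there were, as log2 fold changes, Il10 (1.5 at 4 h, 1.46 at 12 h), Maf (1.45 at 12 h), Nfil3 (1.09 at 4 h, 1.33 at 12 h), Prdm1 (1.81 at 4 h, 2.09 at 12 h) and Foxp3 (1.21 at 4 h). That setting also gave 139 calls over all genes between doses at 12 h (311 with all groups) and 78 at 24 h (151). Leaving out 1 library gave 2 to 4 members called for 0.8 µg 12 h against 0.8 µg 4 h, the lowest without 0.8 µg 4 h replicate 1 or 0.8 µg 12 h replicate 1. The causes were not tested.

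No source says that replicate numbers pair the mice, and same-numbered libraries had correlations of -0.21 to 0.21 in their deviations from group means (mean 0.00 over 63 pairs). Differently numbered libraries had correlations of -0.29 to 0.23 (mean -0.00 over 126 pairs), and 9 of the 21 libraries were closest to their own number. With a replicate block, Ikzf2 in 0.8 µg 12 h against control was called (log2 fold change 1.01), Il10 in 0.8 µg 24 h against control was not (adjusted p = 0.0634), the interaction of Prdm1 had an adjusted p of 0.076, and no other call of the 7 genes changed. Depth limits Il10 and Nfil3 most, with 184 and 276 reads in all.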
